A study of Rattus norvegicus with 12 samples.

Results

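Cd36 and 4 long-chain acyl-CoA synthetases, Acsl1, Acsl3, Acsl4 and Acsl5, were followed in rat liver across 4 diets. Their members were the probe sets to which the array's annotation gives exactly 1 gene symbol, that of one of these genes. They came to 13 of 8740 probe sets and 5 of 4736 named genes, with 2 probe sets for Cd36, 4 for Acsl1, 2 for Acsl3, 3 for Acsl4 and 2 for Acsl5. Another 5 probe sets carry Cd36 together with a second symbol, Cd36l1, and were not counted as members. The rats were male, of the Sprague-Dawley strain, weighed 150 g at the start, and received 17% more calories than needed for 21 days by infusion of a liquid diet into the stomach (total enteral nutrition). The 4 groups of 3 arrays were 70% fat as corn oil, 5% fat as corn oil, 70% fat as olive oil and 5% fat as olive oil. Corn oil is the polyunsaturated and olive oil the monounsaturated fat source per the labels, and the protocol's echium oil diets were not analysed here. Diets had equal calories, so 70% fat also means less carbohydrate than 5% fat, and these changes cannot be told apart. Each array held RNA pooled from livers. How many rats made up a pool is not stated in the labels, and p-values measure the spread between pools.

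Long-chain fatty acids reach a cell bound to albumin or released from lipoproteins, and Cd36 (fatty acid translocase, a scavenger receptor of the plasma membrane) promotes their uptake. Inside the cell, acyl-CoA synthetases couple the fatty acid to coenzyme A, which is required before it can be oxidised, esterified into triglyceride and phospholipid, or elongated. Acsl1 is the main form of liver and acts at mitochondria and the endoplasmic reticulum, Acsl3 is found on lipid droplets and the endoplasmic reticulum, Acsl4 prefers arachidonic acid, and Acsl5 acts at mitochondria and the endoplasmic reticulum. Cd36 is low in normal liver and is known to increase in fatty liver.

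The promoters of Cd36 and Acsl5, the members whose probe sets were all lower with corn oil, are shown with that of Acsl3, none of whose probe sets passed a test. Each runs from 250 bases before to 50 bases after the start of the gene in RefSeq's GRCr8 annotation, read 5' to 3' on the strand of the gene, with matches on either strand to the TATA box (TATAAA), the CCAAT box and the GC box (GGGCGG) in capitals.
Cd36, chr4:18246332-18246631, plus strand: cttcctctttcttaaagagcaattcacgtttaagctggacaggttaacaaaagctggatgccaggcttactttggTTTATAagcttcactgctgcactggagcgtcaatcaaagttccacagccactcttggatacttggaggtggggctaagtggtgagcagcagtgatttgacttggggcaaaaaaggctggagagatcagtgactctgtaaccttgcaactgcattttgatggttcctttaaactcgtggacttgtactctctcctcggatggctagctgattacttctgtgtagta
Acsl5, chr1:264294601-264294900, plus strand: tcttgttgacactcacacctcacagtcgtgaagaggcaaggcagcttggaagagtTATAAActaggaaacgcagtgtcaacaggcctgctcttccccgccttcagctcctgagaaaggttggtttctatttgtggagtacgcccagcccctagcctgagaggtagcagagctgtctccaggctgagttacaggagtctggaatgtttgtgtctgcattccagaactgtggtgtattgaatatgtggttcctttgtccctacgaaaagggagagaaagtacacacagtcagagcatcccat
Acsl3, chr9:87563351-87563650, plus strand: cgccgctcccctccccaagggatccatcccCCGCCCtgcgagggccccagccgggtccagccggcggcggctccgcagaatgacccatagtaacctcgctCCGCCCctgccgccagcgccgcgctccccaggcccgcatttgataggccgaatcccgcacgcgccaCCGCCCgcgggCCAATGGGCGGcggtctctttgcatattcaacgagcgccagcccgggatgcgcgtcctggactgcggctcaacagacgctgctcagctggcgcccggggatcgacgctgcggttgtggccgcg
G and C made up 45.7% of the Cd36 promoter and 49.7% of that of Acsl5, against 72.7% for Acsl3 and 70.7% for Acsl4 (chrX:110803212-110803511, minus strand). The median over 33365 promoters was 51.7%, and 72.7% was their 95th percentile, so the promoters of Acsl3 and Acsl4 were at the GC-rich end and those of Cd36 and Acsl5 were not. The TATA box letters occurred once in Cd36, starting 175 bases before the start on the opposite strand, and once in Acsl5, starting 195 bases before it, and 14.2% of all promoters hold it. The GC box letters occurred 4 times in Acsl3 and 2 times in Acsl4, and 33.1% of all promoters hold it, while CCAAT, held by 37.5%, occurred once in Acsl3. AGGTCA, the core motif of sites bound by nuclear receptors such as the fatty acid receptors PPAR, occurred in none of these 4 windows, and 16.2% of all promoters hold it on either strand. Matches of different motifs do not overlap, and the 2 GC box matches of Acsl4 overlap each other. The window of Acsl1 is not described here.

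The deposited log2 values are centred, with 0 at the median of a probe set over the 12 arrays, so levels of different genes cannot be compared, and no signal over background is known. Array medians ran from -0.0268 to 0.0623. The 2 oils differed in a measure of RNA quality, the 3'/5' index, in which control probe sets near the 5' end of actin and GAPDH are subtracted from those near the 3' end and the pair of results is averaged. As it is built from centred values, only differences in the index between arrays can be read, and its 0 is arbitrary. The index was 0.16 to 1.50 on the 6 corn oil arrays and -0.43 to -0.23 on the 6 olive oil arrays, with a difference of 1.35 (two-sided exact permutation test, p = 0.002165, the smallest this design allows). Between 70% and 5% fat it differed by -0.56 for corn oil (p = 0.2) and 0.018 for olive oil (p = 0.8), in exact permutation tests that with 3 arrays a group cannot go below 0.1. Since no corn oil array had an index within the olive oil range, oil and index cannot be told apart. The corn oil array nearest to that range was pool 2 at 70% fat, with 0.16. In liver tissue, fewer cells of a type and less RNA per cell cannot be told apart either.

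**Figure D1:**
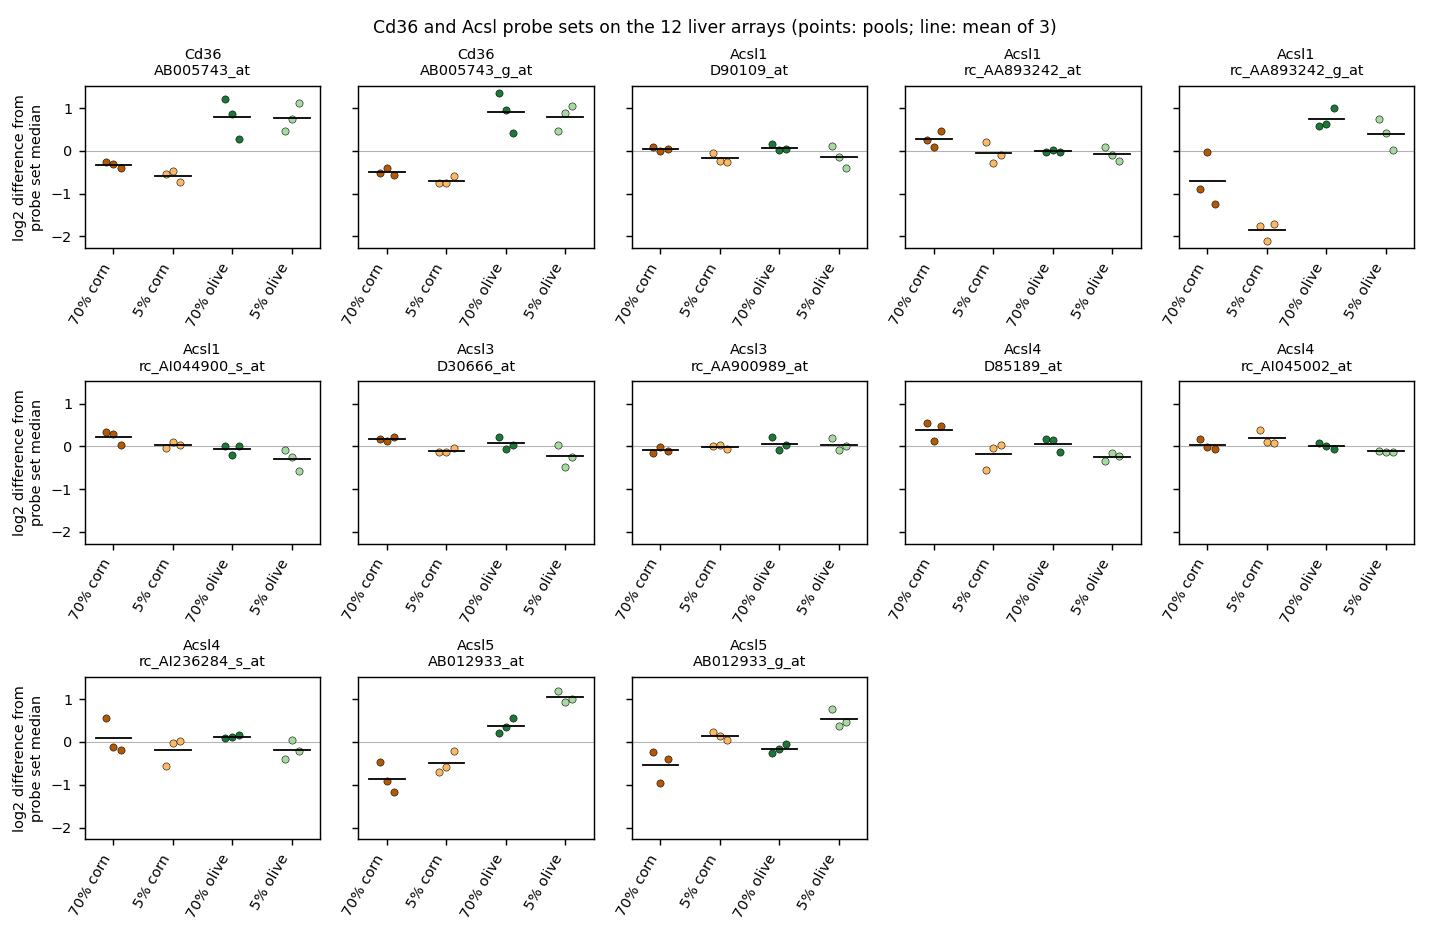
Value of each of the 13 probe sets on the 12 arrays, on the vertical axis as log2 difference from the probe set's median, for the 4 diets on the horizontal axis. Points are pools and lines are means of 3 pools. Both Cd36 probe sets, the Acsl1 probe set rc_AA893242_g_at and the Acsl5 probe set AB012933_at have every corn oil pool below every olive oil pool.

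Corn oil was set against olive oil to ask how the type of fat bears on these genes. Cd36 was lower with corn oil at both fat levels, by 2.16-fold to 2.82-fold, and Acsl5 was lower by 2.34-fold and 2.91-fold on one of its probe sets. Acsl1 split, with 1 probe set lower and 1 of the other 3 higher. Acsl3 passed no test of oil, and Acsl4 passed only on 1 probe set at 5% fat. In the mean of the differences at both fat levels, 5 of 13 probe sets fell and 1 rose with corn oil (limma, Benjamini-Hochberg adjusted p under 0.05), beside 24.3% of all probe sets called in that comparison, 11.1% lower and 13.1% higher. The 6 called probe sets come from 4 accessions. At 70% fat, 4 probe sets fell and 0 rose, beside 8.51% of all, 4.55% lower and 3.96% higher. At 5% fat, 4 fell and 1 rose, beside 19.5% of all, 9.36% lower and 10.1% higher. The median difference over the 13 probe sets was -0.030 in the mean of both fat levels, against 0.034 over all probe sets, since most of the members' values lay close to 0.

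Cd36 was measured by 2 probe sets of 1 accession, AB005743_at and AB005743_g_at. On AB005743_at the values with corn oil were -0.27, -0.31 and -0.40 at 70% fat and -0.54, -0.46 and -0.73 at 5% fat. With olive oil they were 1.22, 0.87 and 0.27 at 70% fat and 0.46, 0.75 and 1.12 at 5% fat. Every corn oil pool was below every olive oil pool, and pool 3 of the 70% olive oil diet was the lowest of its oil. On AB005743_g_at the 6 corn oil pools ran from -0.76 to -0.41 and the 6 olive oil pools from 0.41 to 1.35, again without overlap. Of all probe sets, 5.62% had all corn oil pools below all olive oil pools, and of the 13 members 4 did.

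At 70% fat the corn minus olive difference of Cd36 was -1.11 ± 0.21 on AB005743_at (SE; 95% confidence interval -1.57 to -0.65; limma adjusted p = 0.0096) and -1.40 ± 0.20 on AB005743_g_at (adjusted p = 0.00331). At 5% fat it was -1.36 ± 0.21 (adjusted p = 0.000985) and -1.50 ± 0.20 (adjusted p = 0.000496). Both probe sets moved together over the 12 arrays (Pearson r = 0.98), and as probes of 1 accession they are not independent. As 1 value per gene, Cd36 averaged -0.41 ± 0.06 with 70% corn oil, -0.64 ± 0.02 with 5% corn oil, 0.84 ± 0.48 with 70% olive oil and 0.79 ± 0.31 with 5% olive oil (SD, n = 3 each). Both corn oil groups were below both olive oil groups, and neither 70% fat group differed from the 5% fat group of its oil past the test. The spread between pools was wider with olive oil than with corn oil. Because the test shares its spread estimate over all diets, the corn oil groups were compared against a spread wider than their own.

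Of the 5 probe sets that name Cd36 beside Cd36l1, which cannot be assigned to either, 4 were also lower with corn oil in the mean of both fat levels. Their differences were -2.04, -1.85, -1.97 and -1.13 (limma adjusted p between 2.42e-05 and 0.00207). The other, rc_AA946368_at, differed by -0.28 (adjusted p = 0.390). The difference of 70% minus 5% fat was 0.32 to 1.29 with corn oil and -0.21 to -0.09 with olive oil over the 5, and none of these passed the test. The difference between both, the interaction, was 0.44 to 1.46 and did not pass either (adjusted p of 0.341 or above), with an unadjusted p of 0.0107 to 0.0338 for 4 of the 5.

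Acsl5 was measured by AB012933_at and AB012933_g_at, also from 1 accession. On AB012933_at the values with corn oil were -0.48, -0.92 and -1.17 at 70% fat and -0.71, -0.59 and -0.20 at 5% fat. With olive oil they were 0.20, 0.34 and 0.56 at 70% fat and 1.20, 0.93 and 0.99 at 5% fat. The oils did not overlap, and the 5% olive oil pools were the highest of all. The corn minus olive difference was -1.23 ± 0.18 at 70% fat (SE; limma adjusted p = 0.00331) and -1.54 ± 0.18 at 5% fat (adjusted p = 0.000271). On AB012933_g_at it was smaller, -0.37 ± 0.17 at 70% fat (adjusted p = 0.205) and -0.41 ± 0.17 at 5% fat (adjusted p = 0.114), and passed only as the mean of both, -0.39 ± 0.12 (adjusted p = 0.0313). That call was lost without any one of 5 of the 12 arrays, with an adjusted p of up to 0.0777.

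**Figure D2:**
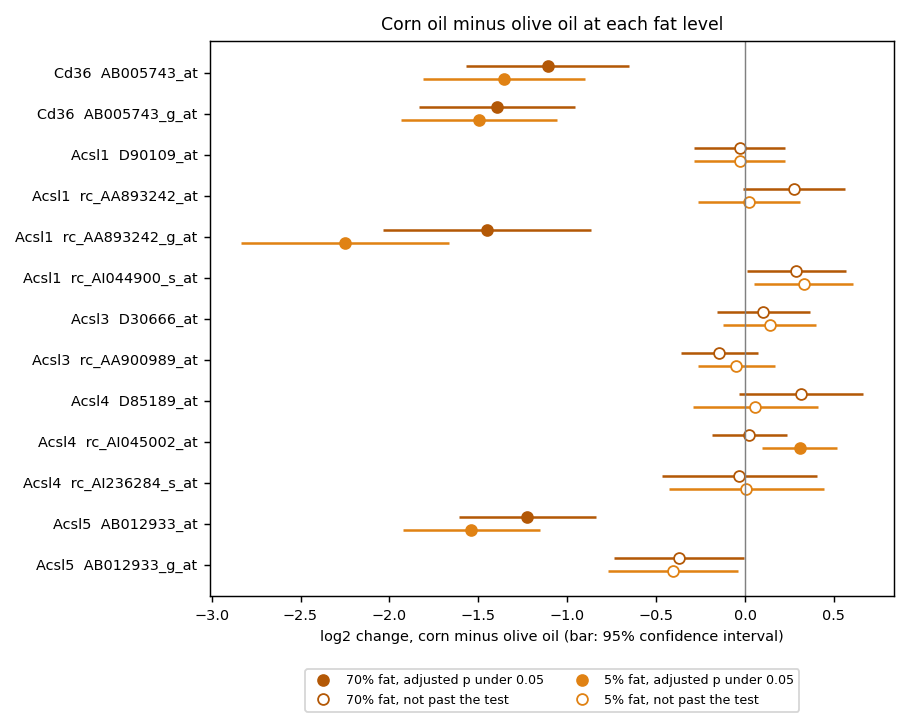
Corn minus olive oil difference of each probe set at 70% and at 5% fat, in log2 units on the horizontal axis, with 95% confidence intervals; filled points passed the test. Both Cd36 probe sets, Acsl5 AB012933_at and Acsl1 rc_AA893242_g_at lie between -2.25 and -1.11, and the other probe sets lie between -0.41 and 0.33.

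Acsl1, the main long-chain synthetase of liver, gave different answers by probe set. On rc_AA893242_g_at the corn oil pools were at -0.88, -0.03 and -1.23 with 70% fat and at -1.76, -2.11 and -1.70 with 5% fat. The olive oil pools were at 0.57, 0.63 and 1.01 with 70% fat and at 0.74, 0.41 and 0.03 with 5% fat. The oils did not overlap, though pool 2 of the 70% corn oil diet and pool 3 of the 5% olive oil diet were close to each other. The difference was -1.45 ± 0.27 at 70% fat (2.73-fold lower; limma adjusted p = 0.00875) and -2.25 ± 0.27 at 5% fat (4.76-fold lower; adjusted p = 0.000302). On rc_AI044900_s_at, in contrast, the pools with corn oil ran from -0.05 to 0.33 and those with olive oil from -0.58 to 0.00, and the mean difference was 0.31 ± 0.09 (adjusted p = 0.0264). This call was lost without any one of 4 of the 12 arrays, with an adjusted p of up to 0.0687. On the other probe sets of Acsl1 the mean difference was 0.15 on rc_AA893242_at and -0.030 on D90109_at, and neither passed.

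The probe sets rc_AA893242_g_at and rc_AA893242_at come from the same Acsl1 accession. The value of rc_AA893242_g_at minus that of rc_AA893242_at averaged -1.39 on the corn oil arrays (-1.97 to -0.12) and 0.61 on the olive oil arrays (0.26 to 1.03), a difference of -2.00. For Acsl5, AB012933_at minus AB012933_g_at averaged -0.48 with corn oil (-0.93 to 0.04) and 0.51 with olive oil (0.42 to 0.60), a difference of -0.99. For Cd36, AB005743_at minus AB005743_g_at averaged 0.15 with corn oil (-0.16 to 0.30) and -0.068 with olive oil (-0.14 to 0.076), a difference of 0.21. These 3 pairs are the members that share an accession, and their disagreement is given as a description, with no test, since it was noticed in these values. As 1 value per gene, the mean of its probe sets, Acsl1 differed by -0.48 ± 0.12 at 5% fat (adjusted p = 0.0169) and by -0.23 at 70% fat (adjusted p = 0.292). Apart from rc_AA893242_g_at, its probe sets differed by -0.03 to 0.33 at 5% fat.

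The comparisons were then refitted with the 3'/5' index of each array as a covariate. None of 8740 probe sets, members included, passed a comparison of oil in that limma fit, in which the median standard error of the mean oil difference was 0.234, against 0.080 without the index. The mean oil difference of Cd36 was -1.41 and -1.27 with the index, against -1.23 and -1.45 without it, with unadjusted p of 0.0113 and 0.0157 and adjusted p of 0.751 on both probe sets. That of Acsl5 was -1.09 on AB012933_at and -1.22 on AB012933_g_at, against -1.38 and -0.39. For Acsl1 rc_AA893242_g_at it was -0.56 with the index and -1.85 without it. Both Cd36 estimates with the index lay within their intervals without it. Those of Acsl1 rc_AA893242_g_at, Acsl5 AB012933_at and AB012933_g_at lay outside theirs (-2.26 to -1.44, -1.66 to -1.11 and -0.65 to -0.13). Intervals with the index were wide, -2.43 to -0.38 and -2.25 to -0.29 for Cd36, and -1.54 to 0.41 for Acsl1 rc_AA893242_g_at. For Acsl5 they were -1.93 to -0.24 and -1.81 to -0.63. On each of these probe sets the intervals of both fits overlapped. As oil and index cannot be told apart, these shifts do not rank the genes.

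**Figure D3:**
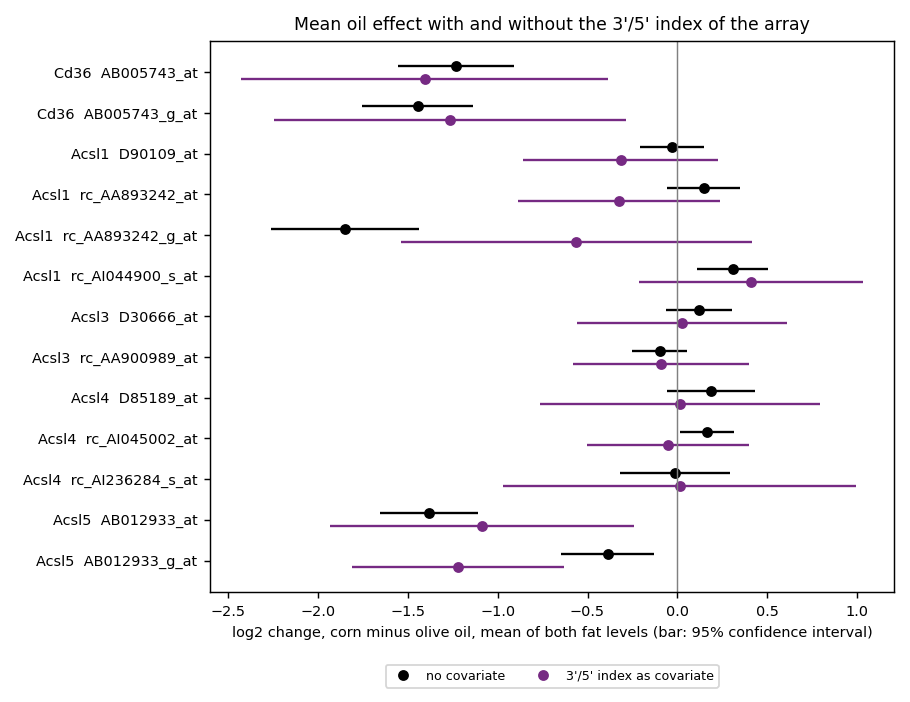
Mean corn minus olive oil difference of each probe set, in log2 units on the horizontal axis, without and with the 3'/5' index of the array as a covariate; bars are 95% confidence intervals. The Cd36 differences lie between -1.45 and -1.23 in both fits, and that of Acsl1 rc_AA893242_g_at is -1.85 without and -0.56 with the index. Intervals are wider with the index.

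The probe sets of Acsl3 and Acsl4 differed between oils by at most 0.32 on the log2 scale at either fat level. Acsl3 D30666_at differed between oils by 0.10 at 70% fat and 0.14 at 5% fat, and rc_AA900989_at by -0.14 and -0.05, with no test passed. For Acsl4, rc_AI045002_at passed at 5% fat, with 0.37, 0.11 and 0.09 for corn oil and -0.11, -0.12 and -0.12 for olive oil. The corn oil pools were all above the olive oil pools there, and the difference was 0.31 ± 0.10 (1.24-fold higher; limma adjusted p = 0.0431). It no longer passed without any one of 8 of the 12 arrays, with an adjusted p of up to 0.161. The other Acsl4 probe sets, D85189_at and rc_AI236284_s_at, differed by 0.06 and 0.01 at 5% fat and by 0.32 and -0.03 at 70% fat, and neither passed.

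Next, 70% fat was set against 5% fat with each oil, to ask how the share of fat in the diet bears on uptake and activation. Acsl5 fell with 70% fat in the mean over both oils, and no other member changed past the test. With corn oil, 0 of 13 probe sets passed, beside 2.11% of all probe sets, and 5 had an unadjusted p under 0.05, beside 18.8% of all. With olive oil 0 passed, beside 0.435% of all, and 3 had an unadjusted p under 0.05, beside 8.46% of all. In the mean of both oils 1 passed, Acsl5 AB012933_g_at, beside 2.28% of all, and 7 had an unadjusted p under 0.05, beside 14.5% of all. A single call among 13 is too few to set apart from that share. With corn oil, 6 of 13 member probe sets had all 70% fat pools above all 5% fat pools and 1 had them below. Over all probe sets these shares were 8.51% and 10.4%. The 6 are not independent, as they include both Cd36 probe sets, and D90109_at and rc_AA893242_g_at of Acsl1. With olive oil, 3 of 13 had the 70% fat pools above and 2 had them below, beside 12.8% and 7.01% of all probe sets.

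On Acsl5 AB012933_g_at the corn oil pools were at -0.23, -0.96 and -0.39 with 70% fat and at 0.22, 0.14 and 0.04 with 5% fat. The olive oil pools were at -0.27, -0.17 and -0.04 with 70% fat and at 0.78, 0.37 and 0.48 with 5% fat. Within each oil all 70% fat pools were below all 5% fat pools. The difference was -0.66 ± 0.17 with corn oil (limma adjusted p = 0.064), -0.70 ± 0.17 with olive oil (adjusted p = 0.142) and -0.68 ± 0.12 as their mean (1.60-fold lower; adjusted p = 0.0098). With the index as a covariate the difference was -0.31 ± 0.16 with corn oil (adjusted p = 0.436), -0.71 ± 0.12 with olive oil (adjusted p = 0.0259) and -0.51 as their mean (adjusted p = 0.0325). On AB012933_at the mean difference was -0.51 ± 0.13 (adjusted p = 0.0607), with -0.36 for corn oil and -0.67 for olive oil. As 1 value per gene, Acsl5 averaged -0.69 ± 0.31 with 70% corn oil, -0.18 ± 0.09 with 5% corn oil, 0.11 ± 0.15 with 70% olive oil and 0.79 ± 0.18 with 5% olive oil (SD, n = 3 each), and its mean fat difference was -0.60 ± 0.10 (SE; adjusted p = 0.00731).

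Acsl1 had positive differences of 70% minus 5% fat on all 4 probe sets with either oil, 0.19 to 1.14 with corn oil and 0.07 to 0.34 with olive oil, and none passed. The largest was on rc_AA893242_g_at with corn oil, 1.14 ± 0.27 (95% confidence interval 0.56 to 1.72; limma adjusted p = 0.0509). With the index as a covariate that difference was 0.60. Its values in the 70% and 5% corn oil pools, given above, did not overlap, and the highest, pool 2 of the 70% diet at -0.03, is the corn oil array with the lowest index. The part of RNA quality in this difference was not tested beyond that covariate. As 1 value per gene, Acsl1 was 0.47 ± 0.12 higher with corn oil (SE; adjusted p = 0.0617) and 0.34 higher in the mean of both oils (adjusted p = 0.0608), short of the threshold.

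Cd36 differed between 70% and 5% fat by 0.25 and 0.21 with corn oil (limma adjusted p = 0.574 and 0.646) and by 0.01 and 0.11 with olive oil. Acsl4 D85189_at was at 0.54, 0.12 and 0.47 with 70% corn oil and at -0.56, -0.03 and 0.03 with 5% corn oil. The groups did not overlap, and the difference of 0.56 ± 0.16 did not pass (adjusted p = 0.0925), nor did the mean over both oils of 0.44 ± 0.11 (adjusted p = 0.0792). Acsl3 D30666_at differed by 0.27 with corn oil and 0.30 with olive oil (mean 0.29, adjusted p = 0.124), and rc_AA900989_at by -0.08 and 0.01. The median over the 13 probe sets was 0.22 with corn oil and 0.13 with olive oil, against -0.0075 and 0.028 over all probe sets.

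The fat difference with corn oil minus that with olive oil, the interaction, passed for 0 of 13 members and for 0 of 8740 probe sets in limma, with 0 members and 1028 probe sets at an unadjusted p under 0.05. The largest among the members was 0.80 ± 0.38 on Acsl1 rc_AA893242_g_at (adjusted p = 0.438). A difference between the oils in how these genes respond to the fat share was therefore not detectable with 3 pools a diet.

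**Figure D4:**
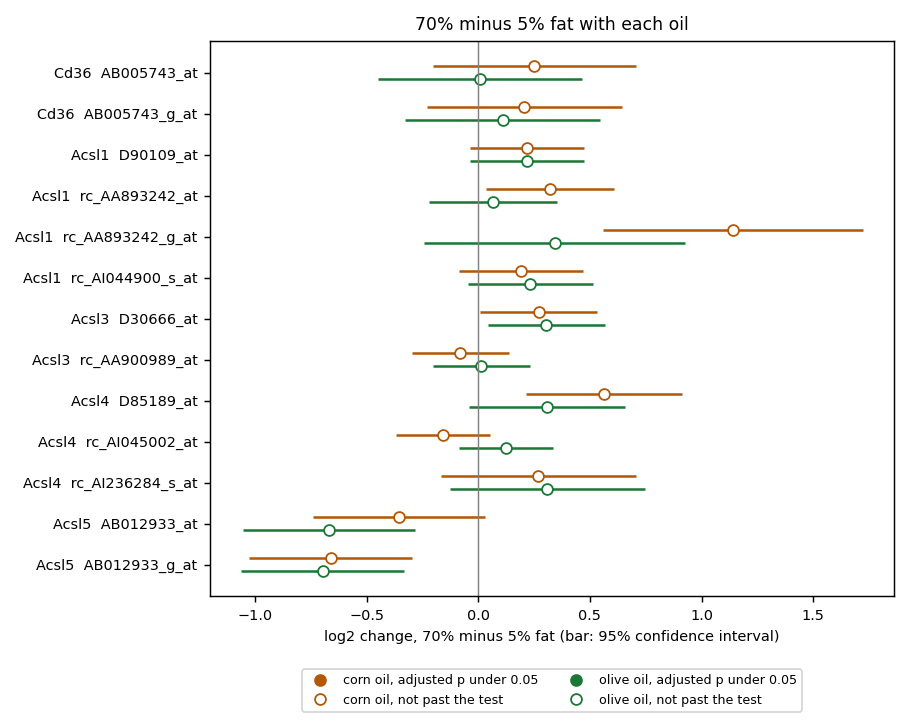
Difference of 70% minus 5% fat for each probe set with corn oil and with olive oil, in log2 units on the horizontal axis, with 95% confidence intervals; open points did not pass the test. Both Acsl5 probe sets lie below 0 with either oil, between -0.70 and -0.36, and all 4 Acsl1 probe sets lie above 0.

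Over the 12 arrays, Cd36 followed Acsl5 with a Pearson r of 0.65 and Acsl1 with 0.58, and Acsl4 against Acsl5 gave -0.51, as descriptions across arrays that share the oil difference. Among 4735 other genes, those most like Cd36 were Ift46 (r = 0.95), Hoxc4 (r = 0.94) and Acvr1 (r = 0.94). Within the 6 corn oil arrays their r was 0.13, 0.52 and 0.69, and within the 6 olive oil arrays 0.74, 0.73 and 0.82. Those most like Acsl5 were Acacb, Acaca and Fasn, each with r = 0.92, with 0.67, 0.41 and 0.91 within corn oil and 0.90, 0.94 and 0.94 within olive oil. Acacb and Acaca encode acetyl-CoA carboxylases and Fasn fatty acid synthase. For Acsl1 they were Ube2h, Papola and Mbl2, each with r = 0.92 and at least 0.81 within either oil. The closest genes were Entpd1, Slc6a6 and Abi2 for Acsl3 (r = 0.79, 0.77 and 0.76) and Adgrl2, Mpdz and Prps2 for Acsl4 (r = 0.85, 0.84 and 0.84).

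The genes around this step were read as 1 value per gene in the mean of both oils or of both fat levels, where 2.17% of 4736 genes passed for fat in limma (1.08% higher and 1.1% lower with 70% fat) and 21.9% for oil (11.9% higher and 9.95% lower with corn oil). Of 12 measured genes of fatty acid uptake, 1 rose and 1 fell with 70% fat, against 0 and 1 of the 5 members. Slc27a2, a fatty acid transport protein that also activates very long-chain fatty acids, rose by 0.47 (adjusted p = 0.005), and Fabp5, a cytosolic fatty acid binding protein, fell by 2.79. With corn oil 2 of the 12 fell, Fabp2 by 0.63 and the lipoprotein receptor Scarb1 by 0.61, and with the index as a covariate these differences were -0.77 and 0.0035. Of 3 other acyl-CoA synthetases measured, 0 passed for fat, and Acsm3, a medium-chain synthetase, differed by -0.80 with corn oil, or by -0.097 with the index.

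Several genes of the steps after activation rose with 70% fat. Of 9 measured genes of mitochondrial entry and fatty acid oxidation, 4 rose with 70% fat. Among them were Cpt1a, by 0.99, and Cpt2, by 0.66, the carnitine palmitoyltransferases that carry acyl groups into mitochondria. In that list 4 fell with corn oil, Cpt1a, Slc25a20, Hadha and Hadhb, by 0.27 to 1.50. With the index these oil differences were -1.13 for Cpt1a, 0.091 ± 0.29 for Slc25a20, -0.15 for Hadha and 0.52 ± 0.41 for Hadhb (SE). The estimates of Slc25a20 and Hadhb were thus above 0, but too imprecise to give a direction. Of 4 genes of acyl-CoA binding and hydrolysis, the thioesterases Acot1 and Acot2 rose with 70% fat, by 3.49 and 0.67, and Acot2 fell with corn oil by 0.88, a difference that was 0.077 with the index. With the index as a covariate, Acot2 (adjusted p = 0.0515) and Acadm (adjusted p = 0.162) no longer passed for fat, and Slc27a2, Fabp5, Acot1, Cpt1a, Cpt2, Hadha and the member Acsl5 still did. Of 2 measured glycerolipid synthesis genes, 0 passed for fat, and Gpam, which starts triglyceride synthesis from acyl-CoA, fell with corn oil by 0.55, with -0.54 in the fit with the index. Of 13 measured regulators, 0 passed for fat. With corn oil, 4 of these were lower, Rxrg by 0.60, Srebf1 by 0.91, Hnf4a by 0.32 and Cebpa by 0.43 on the log2 scale, and Prkaa2 was higher by 0.52. With the index these differences were -0.19 for Rxrg, -0.28 for Srebf1, 0.22 for Hnf4a, -0.026 for Cebpa and 0.36 for Prkaa2. Of the 13 listed genes that were lower with corn oil, 5 thus had an estimate above 0 with the index, and none passed with it. These 5 estimates ran from 0.0035 ± 0.23 for Scarb1 to 0.52 ± 0.41 for Hadhb (SE), so they do not show a reversal.

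**Figure D5:**
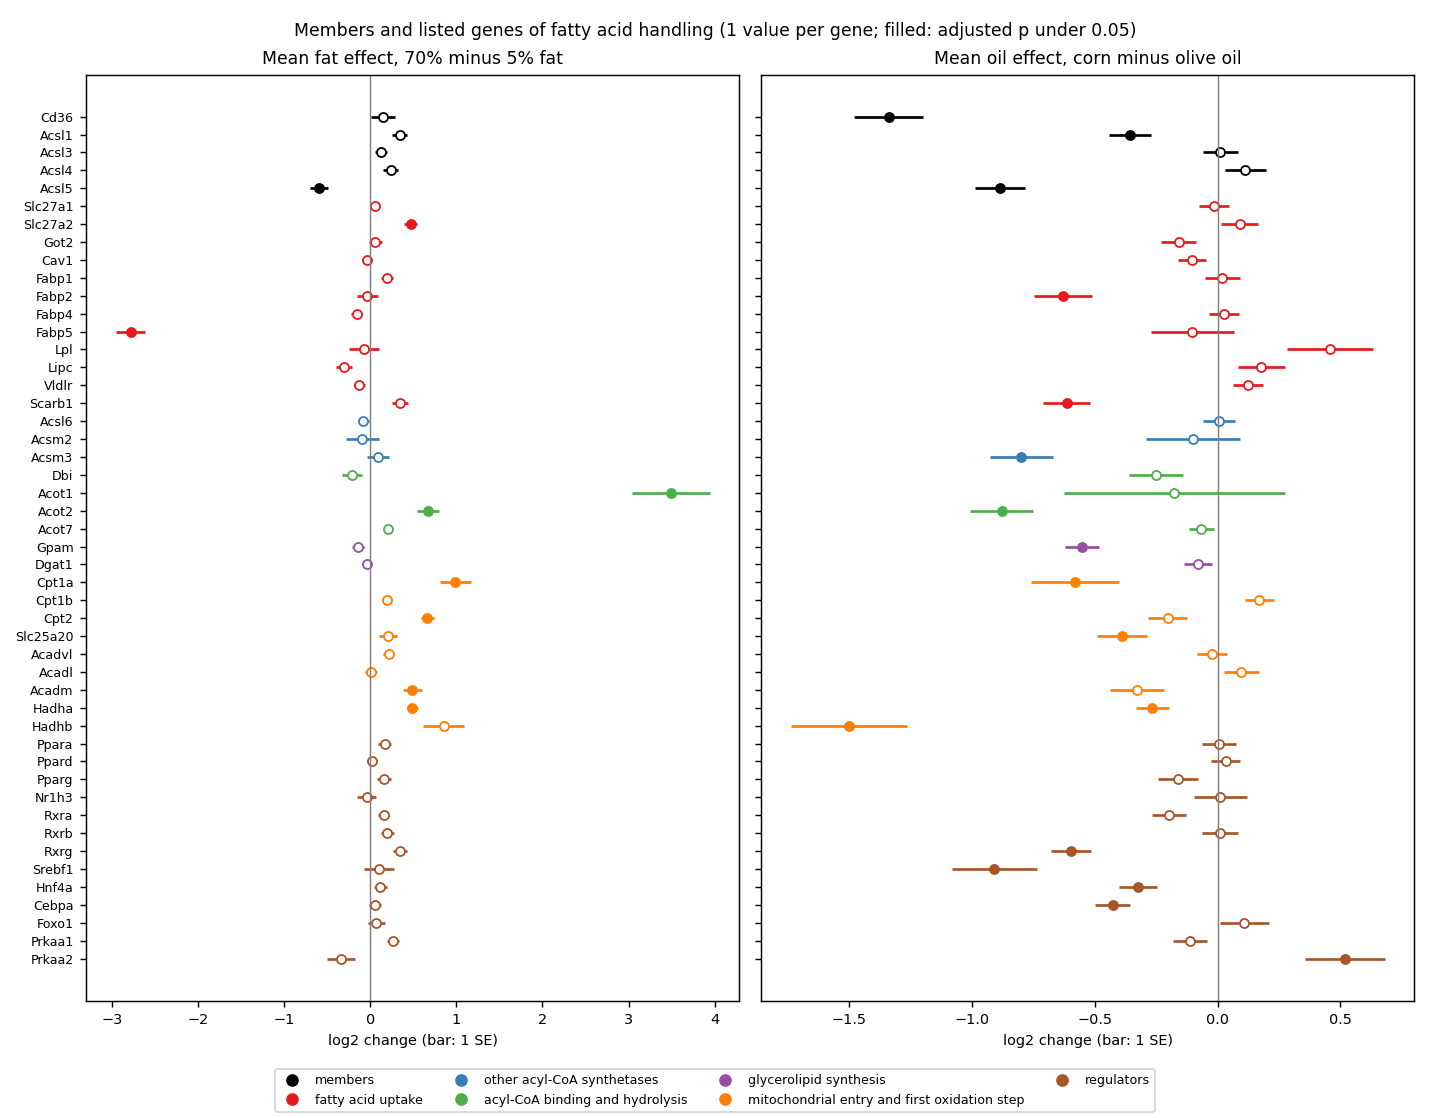
Mean fat difference (70% minus 5%, left) and mean oil difference (corn minus olive, right) of the 5 members and of the listed genes around them, in log2 units on the horizontal axes, 1 value per gene with bars of 1 SE. Acsl5 is below 0 in both panels, while Cpt1a and Cpt2 lie to the right in the fat panel.

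Cd36 is also made by macrophages, endothelium and fat cells, so markers of these cells are given beside its oil difference. The mean value of 7 measured macrophage and Kupffer cell markers was -0.16 to 0.22 on corn oil arrays and -0.27 to 0.30 on olive oil arrays. That of 5 endothelial markers was -0.11 to 0.15 with corn oil and -0.21 to 0.15 with olive oil. That of 4 adipocyte markers was -0.04 to 0.18 with corn oil and -0.19 to -0.01 with olive oil. The ranges of macrophage and endothelial markers overlapped between oils, and corn oil arrays were mostly above olive oil arrays in the mean of the adipocyte markers. That difference lay mostly in Cfd, which differed by 0.85 at 70% fat and 0.66 at 5% fat. Plin1, Lep and Lipe differed by -0.15 to 0.17 at either fat level. For oil, in the mean of both fat levels, 1 of 7 macrophage markers was higher (Ptprc by 0.21) and 0 lower. Of 5 endothelial markers 1 was higher and 1 lower, and of 4 adipocyte markers 1 was higher (Cfd by 0.76) and 0 lower. Over all 4736 genes 11.9% were higher and 9.95% lower with corn oil. A single call in so short a list is too few to set apart from these shares. The mean of 6 stellate and matrix markers was 0.06 to 0.22 on corn oil arrays and -0.23 to 0.02 on olive oil arrays, without overlap, and 3 of the 6 were higher with corn oil. That of 8 hepatocyte markers was -0.13 to 0.02 with corn oil and -0.03 to 0.08 with olive oil, and 1 of the 8 was lower. At 5% fat, the oil differences past the test were 0.40 for Ptprc, 0.56 for Kdr, -0.42 for Pecam1 and 0.66 for Cfd. With the index as a covariate these were -0.18, 0.83, -0.66 and -0.07. For Col1a1, Col1a2 and Col3a1 they were 0.72, 0.80 and 0.41, and 0.17, -0.09 and 0.44 with the index. The stellate and matrix calls were thus collagens. Acta2, Des and Timp1 of that list differed by -0.05, -0.14 and 0.20 at 5% fat without passing. For the hepatocyte markers Apoa1 and Serpina1 the differences past the test were -0.60 and -0.31, and -0.54 and -0.05 with the index. None of these passed with the index. Whether a marker is near 0 cannot be read from centred values, and the part of these cells in the Cd36 result was not tested.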

How the data were processed

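RNA of rat liver pools was measured on 12 single-colour Affymetrix arrays, 3 for each of 4 diets, grouped by the labelled oil and its concentration. The deposited table of the authors holds 8799 probe sets in log2 units, made with GCOS and RMA (versions not stated) per the submitters' processing notes. The base of the logarithm is not recorded there and was taken as 2. In the deposited values 100% of probe sets have a median of 0 over the arrays, within 1e-06. There were 0 columns of other samples. No 2 arrays were alike, the closest pair differing by a root mean square of 0.195.

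Control probe sets (59) were left out. The platform annotation gave 1 symbol to 7006 probe sets, several to 308 and none to 1426. Of the 7006, 6985 were matched to a GRCr8 gene through the gene identifier and took its symbol. The other 21 kept the platform's symbol. All 8740 probe sets were tested with limma 3.58.1 in R 4.3.3 (lmFit and eBayes, 8 residual degrees of freedom, each diet a mean), two-sided, with Benjamini-Hochberg adjustment within each of 7 contrasts and a threshold of 0.05. For 1 value per gene, its probe sets were averaged and 4736 genes refitted. The code was tested on simulated data. The text names every member probe set, the 3 genes most correlated with each member, and listed genes that passed. Members, lists and tests were chosen with earlier results of these data known, including the 3'/5' index. A filter on dim probes could not be applied to centred values. The number of arrays limits the precision. Promoter sequences are RefSeq's, with GRCr8 coordinates, and were matched by symbol for 5 of 5 genes. Alternatives were a second quantile normalization, array centring, trend with robust moderation, robust moderation alone (added after seeing the data), arrays of 2 groups, probe sets of 1 symbol, 1 value per gene, the pool number as a block, the index as a covariate, and leaving out each array.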

Additional observations from a re-analysis of the deposited data

How the results depend on the processing

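Each count of members past the test was recomputed under each alternative, except that arrays of 2 groups alone serve only the comparisons of 2 diets. When the index entered the fit as a covariate, the counts for oil at 70% fat, oil at 5% fat and the mean over fat levels were 0, 0 and 0, against 4, 5 and 6, and the count for fat with olive oil was 1 against 0. Fits on the arrays of 2 groups gave 2 for fat with olive oil, probe sets of 1 symbol alone gave 1 for fat with corn oil against 0, and the mean fat count was 3 against 1 under a second quantile normalization and under trend with robust moderation. The cause was not tested. Leaving out each array in turn gave 0 to 1 for fat with corn oil, 0 to 1 for fat with olive oil, 1 to 2 for the mean fat difference, 4 to 4 for oil at 70% fat, 4 to 6 at 5% fat, 4 to 6 for the mean oil difference and 0 to 0 for the interaction.

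The pool number as a replicate block gave 0 and 0 for the fat differences, 4 and 5 for oil, 0 for the interaction, 1 for the mean fat and 6 for the mean oil difference, the same as without it. The titles give pools of one number only that number in common, and whether they shared any handling is not known. Their deviations from the diet means correlated at -0.19 to 0.23 (median 0.012). Those of pools with different numbers correlated at -0.30 to 0.28 (median -0.028). Over all probe sets, the count for fat with corn oil was 184, against 51 under the second quantile normalization, 53 with arrays of 2 groups and 40 with the index, and that for olive oil was 38, against 98, 97 and 64 in the same order and 22 with each array centred on its median. For oil at 70% fat it was 334 with arrays of 2 groups against 744, for the mean fat difference 123 with the index against 199, and the 3 oil counts were 0 with the index. Leaving out 1 array gave from 59 (without 5% corn oil pool 1) to 348 (5% corn oil pool 3) for fat with corn oil, from 10 (70% olive oil pool 1) to 69 (70% corn oil pool 2) for fat with olive oil, and from 311 (70% olive oil pool 3) to 1162 (70% corn oil pool 2) for oil at 70% fat. It was 1115 for oil at 5% fat without 5% olive oil pool 2, against 1704, and 116 for the mean fat difference without 5% corn oil pool 2. Of 16 single results past the test, 313 refits left 278 past it with 0 changes of sign. Of 75 short of it, 18 of 1468 refits passed, and 83 changed sign, all with a size of at most 0.28 before. The filter on dim probes was not run.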
